A study of Homo sapiens with 10 samples.

Results

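The genes described here are the nuclear genes of oxidative phosphorylation, the subunits of mitochondrial complexes I to V that are encoded outside the mitochondrial genome. They were chosen by gene symbol (NDUFA, NDUFB, NDUFC, NDUFS and NDUFV with a digit, NDUFAB1, SDHA to SDHD, UQCR, COX4 to COX8 and ATP5, with COXFA4L3, once called C15orf48, added), and 78 of the 19775 genes on the arrays met that rule. By complex they numbered 33 in complex I, 3 in complex II, 6 in complex III, 18 in complex IV and 18 in complex V. Subunit genes found only on probe sets with several names are not counted as members, and their values are given apart. Another 5 matches by symbol were pseudogenes or non-coding RNAs and were left out.

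Complexes I to IV pass electrons from NADH and succinate to oxygen. Complexes I, III and IV pump protons across the inner mitochondrial membrane, and complex V, the ATP synthase, lets them back to make ATP. Most subunits are nuclear genes whose products must meet a small core made inside the mitochondrion, so assembly factors and mitochondrial ribosomes are needed as well. MDA-MB-231 is an established human cell line of triple-negative breast cancer, known for a high rate of glycolysis. COXFA4L3 encodes a small protein known to take the place of its relative COXFA4 (formerly NDUFA4) in complex IV during inflammation, and its transcript also carries the microRNA miR-147b.

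The 4 tumour lines were cells isolated from MDA-MB-231 xenografts that had regrown in SCID mice given SM-164. Of these, T2 and T3 are labelled resistant to SM-164 and T6 and T8 sensitive. SM-164, a Smac mimetic that blocks IAP proteins, was given intravenously at 5 mg/kg on 5 days per week for 2 weeks. The reference was the parental line in culture, untreated and labelled sensitive. Each line was measured on 2 Affymetrix arrays, 10 arrays in all, from 5 ug of total RNA. No xenograft without SM-164 was measured, so effects of growth in a mouse, of the drug, of regrowth and of cell isolation cannot be told apart. SCID mice lack mature T and B cells but keep other host cells, and the arrays carry human probe sets. Whether both arrays of a line stem from separate cultures is not stated in the labels; the p-values therefore cover only array-to-array spread, possibly technical. In RNA from a mixed isolate, fewer cells of a type and less RNA per cell cannot be told apart.

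Values are log2 expression, and a gene was tested if its probe set was at log2 5 or above on 2 or more arrays. That left 14929 genes and 77 members; COX8C, a testis form of a complex IV subunit, stayed at 3.33 to 3.74 on all 10 arrays. Calls required a limma p under 0.05 after Benjamini-Hochberg adjustment over all genes tested, and differences carry the standard error (SE) of that fit. Probe sets of different genes bind with different strength, so levels are compared between lines and not between genes. Averaged over the arrays, 70 members lay between 9.91 and 13.57, with a median of 12, which is the bright end of the array. The 14929 genes had a median of 8.04 in T2 and 8.02 in parental cells. VIM (14.27 to 14.37 in the tumours, against 14.13 in parental cells) and KRT18 (13.26 to 13.57, against 13.48), both known in this line, were bright in every line.

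Taken over the 4 tumours, the members moved little and in both directions. Of the 77 tested, 26 rose against parental cells (25.5% of all genes did) and 12 fell (16.8% of all genes did). Their median difference was 0.03 on the log2 scale, beside 0.0015 over all genes. Because the members are bright, they were also set beside the 3230 genes of the same level range: among those 1342 rose and 547 fell, with a median of 0.10. Only 3 members differed by log2 0.5 or more, COXFA4L3, NDUFB11 and NDUFB2, and all of these fell; 11.4% of all genes passed that size. All 8 tumour arrays lay above both parental arrays for 14 members (15.7% of all genes did so) and below both for 6 (12.4%). When the deposited values were quantile-normalised a second time, 23 members rose and 26 fell, and over all genes 3268 rose and 3501 fell, against 3801 and 2513 before, so the balance depends on the scaling for all genes alike. Without parental replicate 2 there were 17 rises, and without parental replicate 1 there were 6 falls.

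**Figure D1:**
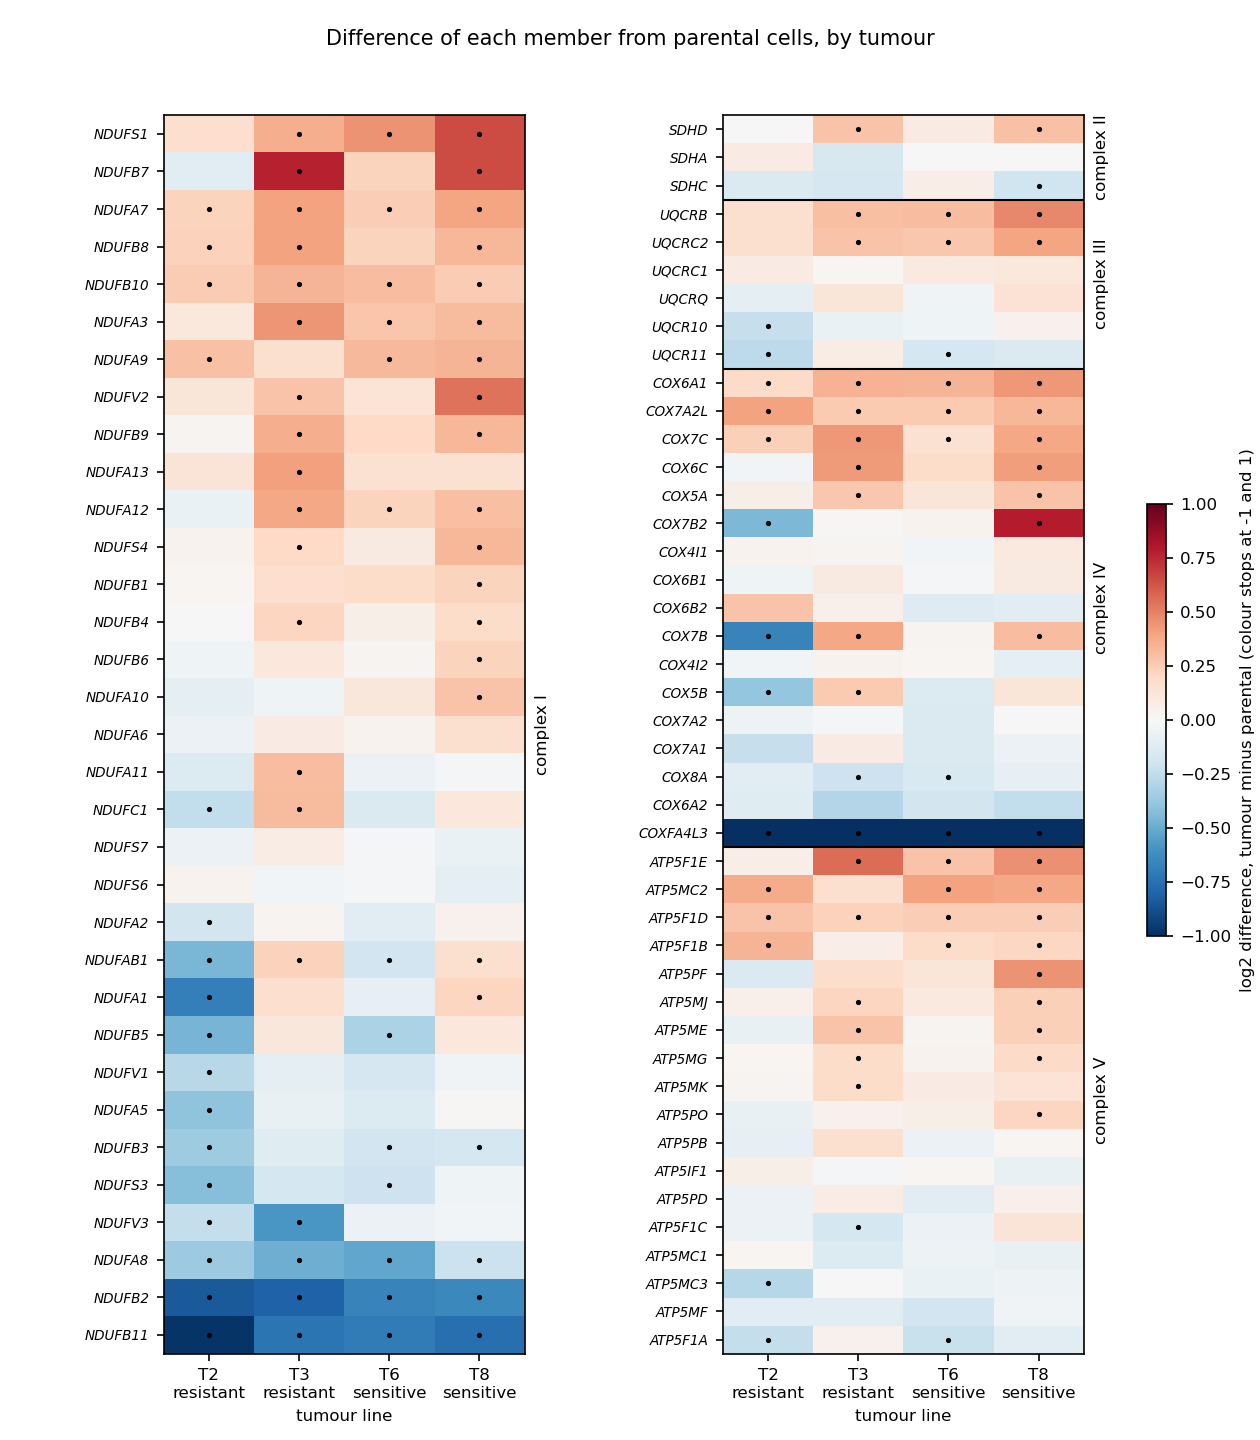
Log2 difference of each of the 77 tested members from parental cells, with 1 row per member, sorted by mean difference within its complex, and 1 column per tumour; dots mark an adjusted p under 0.05 and the colour stops at -1 and 1. COXFA4L3, NDUFB11, NDUFB2 and NDUFA8 are blue and dotted in every tumour, and the T2 column holds more blue than the T3 and T8 columns.

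Complex I takes electrons from NADH. It held 12 of the rises and 8 of the falls among its 33 tested members, including the 2 largest falls outside complex IV. NDUFB11, an accessory subunit of the membrane arm encoded on the X chromosome, measured 10.65 and 10.64 in T2, 10.87 and 10.93 in T3, 10.89 and 10.96 in T6 and 10.86 and 10.88 in T8, against 11.65 and 11.60 in parental cells. Every tumour array was below both parental arrays, by a margin far wider than the gap between arrays of a line. The difference was -0.79 ± 0.05 (SE, 8 arrays against 2; limma adjusted p = 5.3e-09), a level 1.73-fold lower in the tumours. NDUFB2, another accessory subunit of the membrane arm, measured 11.53 and 11.54 in T2, 11.55 and 11.58 in T3, 11.66 and 11.74 in T6 and 11.67 and 11.78 in T8, against 12.36 and 12.38 in parental cells. The tumours again lay together and apart from the parental line, with a difference of -0.74 ± 0.05 (adjusted p = 9.68e-09). NDUFB2 has 3 probe sets, and the other 2 gave -0.72 each.

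NDUFA8, a subunit on the intermembrane side of the complex, measured 10.73 and 10.89 in T2, 10.68 and 10.69 in T3, 10.60 and 10.72 in T6 and 10.92 and 11.02 in T8, against 11.18 and 11.17 in parental cells. No tumour array reached the parental arrays, and T8 came nearest (-0.40 ± 0.06 over the tumours, adjusted p = 4.32e-05). Smaller falls were found for NDUFV3 (-0.23), NDUFB3 (-0.21), the core subunit gene NDUFS3 (-0.21) and NDUFV1 (-0.14), which encodes the subunit that binds NADH. The calls of NDUFB3 (-0.16) and NDUFV3 (-0.15) were lost without parental replicate 1, and those of NDUFS3 (-0.17) and NDUFV1 (-0.08) without parental replicate 2. Of these, NDUFB3 alone had all tumour arrays below both parental arrays. NDUFV3 rests on its brighter probe set: the second one gave 0.08 ± 0.09 with no call.

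In the other direction, NDUFS1, the largest core subunit and a carrier of iron-sulfur clusters, measured 9.67 and 9.84 in T2, 9.9 and 10.01 in T3, 10.03 and 10.04 in T6 and 10.24 on both T8 arrays, against 9.62 and 9.56 in parental cells. All tumour arrays lay above both parental arrays, with T2 closest to them and T8 farthest. The difference was 0.41 ± 0.06 (adjusted p = 5.96e-05), the largest rise among the members, and its next brightest probe sets gave 0.53 and 0.52. NDUFA7 (0.32), NDUFB8 (0.30), NDUFB10 (0.29), NDUFA3 (0.28) and NDUFA9 (0.28), all accessory subunits, rose with every tumour array above both parental arrays. NDUFA7 was at 0.09 with no call in the mean over its probe sets. NDUFB7 rose over the tumours as a whole (0.38), but T2 went the other way (-0.11, not called).

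Promoters are shown for NDUFB2 and NDUFA8, which fell in every tumour, and for NDUFS1, which rose most. Each is a window of 300 bases over the gene's start, mostly before it, 5′ to 3′ on the gene's strand, from RefSeq on GRCh38.p14. Capitals mark a match, on either strand, to motifs known for nuclear genes of mitochondrial proteins: the NRF1 consensus palindrome (the capitals in NDUFA8), the ETS letters CCGGAAG read by GABP, the YY1 letters AAGATGGCG, the cyclic AMP element TGACGTCA, and a TATA box (TATAAAA as one form, TATAAAT as another, and TATATAA besides TATATAT as further forms that can overlap). NDUFB2 held a cyclic AMP element, NDUFA8 the NRF1 palindrome and NDUFS1 the ETS letters on the other strand. NDUFS1 has 2 promoters in the table and 1 of them is printed. The window listed for NDUFB11 lies inside the gene, not at its outermost start, and is not printed.
NDUFB2, chr7:140696458-140696757, plus strand: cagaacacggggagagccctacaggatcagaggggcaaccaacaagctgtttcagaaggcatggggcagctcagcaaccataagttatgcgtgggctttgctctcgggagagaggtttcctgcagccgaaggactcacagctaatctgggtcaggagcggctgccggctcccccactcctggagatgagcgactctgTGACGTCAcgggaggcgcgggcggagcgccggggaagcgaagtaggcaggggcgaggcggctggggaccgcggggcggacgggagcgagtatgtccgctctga
NDUFA8, chr9:122159730-122160029, minus strand: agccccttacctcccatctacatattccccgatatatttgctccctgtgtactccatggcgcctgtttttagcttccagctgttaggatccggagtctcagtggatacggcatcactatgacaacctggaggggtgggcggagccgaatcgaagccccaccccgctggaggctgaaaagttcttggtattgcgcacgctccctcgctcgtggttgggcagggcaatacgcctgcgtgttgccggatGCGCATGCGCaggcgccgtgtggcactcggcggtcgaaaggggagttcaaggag
NDUFS1, chr2:206159395-206159694, minus strand: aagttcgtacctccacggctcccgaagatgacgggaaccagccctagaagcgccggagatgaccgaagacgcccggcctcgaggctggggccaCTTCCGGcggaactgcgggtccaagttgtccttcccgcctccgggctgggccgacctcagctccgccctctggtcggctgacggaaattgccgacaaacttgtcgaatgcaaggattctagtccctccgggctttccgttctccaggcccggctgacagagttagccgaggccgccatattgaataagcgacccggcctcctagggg

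That table has windows for 67 members, of which 64 cover the gene's outermost start and 3 (NDUFB11, ATP5MC2 and ATP5PF) do not. Over the 67 members, the ETS letters were present in 19 (28.4%, beside 12.2% of the promoters of all 27305 genes), the YY1 letters in 8 (11.9%, beside 2.14%), the NRF1 palindrome in 4 (5.97%, beside 1.52%) and the cyclic AMP element in 4 (5.97%, beside 2.25%). A GC box, GGGCGG on either strand and not put in capitals, was present in 43 (64.2%, beside 48.3%), and a TATA box in 5 (7.46%, beside 12%). Among the 21 risen and 11 fallen members with a promoter, the ETS letters occurred in 6 and 4, the YY1 letters in 4 and 0, the NRF1 palindrome in 1 and 1 and the cyclic AMP element in 0 and 1. The GC box occurred in 14 and 10 of them and a TATA box in 1 and 1. The motifs were picked after the values were known, and a match describes the letters only.

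Complex II, which oxidises succinate, had 1 call among 3 members. SDHD, a membrane anchor, rose by 0.16 ± 0.06 (adjusted p = 0.0266), with the T2 and T6 arrays overlapping the parental ones. SDHA, the flavoprotein, gave -0.02 and SDHC, the other anchor, -0.11, neither of them called. In complex III, which passes electrons to cytochrome c, UQCRB (0.31) and the core subunit gene UQCRC2 (0.28) rose and UQCR11 fell (-0.13), while UQCRC1, UQCRQ and UQCR10 differed by -0.07 to 0.07 with no call. UQCRB was at 0.21 and not called without parental replicate 2. UQCRC2 measured 10.74 and 10.87 in T2, 10.87 and 10.99 in T3, 10.87 and 10.96 in T6 and 11.01 and 11.07 in T8, against 10.70 and 10.59 in parental cells. Its tumour arrays were all above the parental ones, by a narrow margin in T2.

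Complex IV, cytochrome c oxidase, held 5 rises and 2 falls among 17 tested members, and the largest difference of any member. COXFA4L3 measured 8.08 and 8.04 in T2, 6.88 and 6.98 in T3, 8.98 and 8.93 in T6 and 8.29 and 8.13 in T8, against 10.45 and 10.31 in parental cells. The parental arrays stood above all others, T6 came next, T8 and T2 followed close together, and T3 was lowest. The difference was -2.34 ± 0.07 (adjusted p = 4.92e-12), 5.06-fold lower over the tumours, and it was -2.32 in T2, -3.45 in T3, -1.42 in T6 and -2.17 in T8, each called. The relative that it is known to replace, COXFA4, is not a member by symbol. It measured 11.30 and 11.46 in T2, 12.26 and 12.40 in T3, 11.71 and 11.65 in T6 and 12.05 and 12.10 in T8, against 11.81 and 11.56 in parental cells. COXFA4 was thus highest in T3, where COXFA4L3 was lowest, but it was lowest in T2 and not in the parental line, where COXFA4L3 was highest. Its differences from parental cells were -0.30 in T2, 0.64 in T3 and 0.39 in T8, all 3 called, and -0.002 in T6. Over the tumours COXFA4 differed by 0.18 ± 0.06 (adjusted p = 0.0338), but by 0.06 with no call without parental replicate 2, and the call was lost under several other settings too. COXFA4L2, the third relative and known as a hypoxia target, lay between 6.15 and 6.42 on all arrays and was not called (-0.02 ± 0.10).

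**Figure D2:**
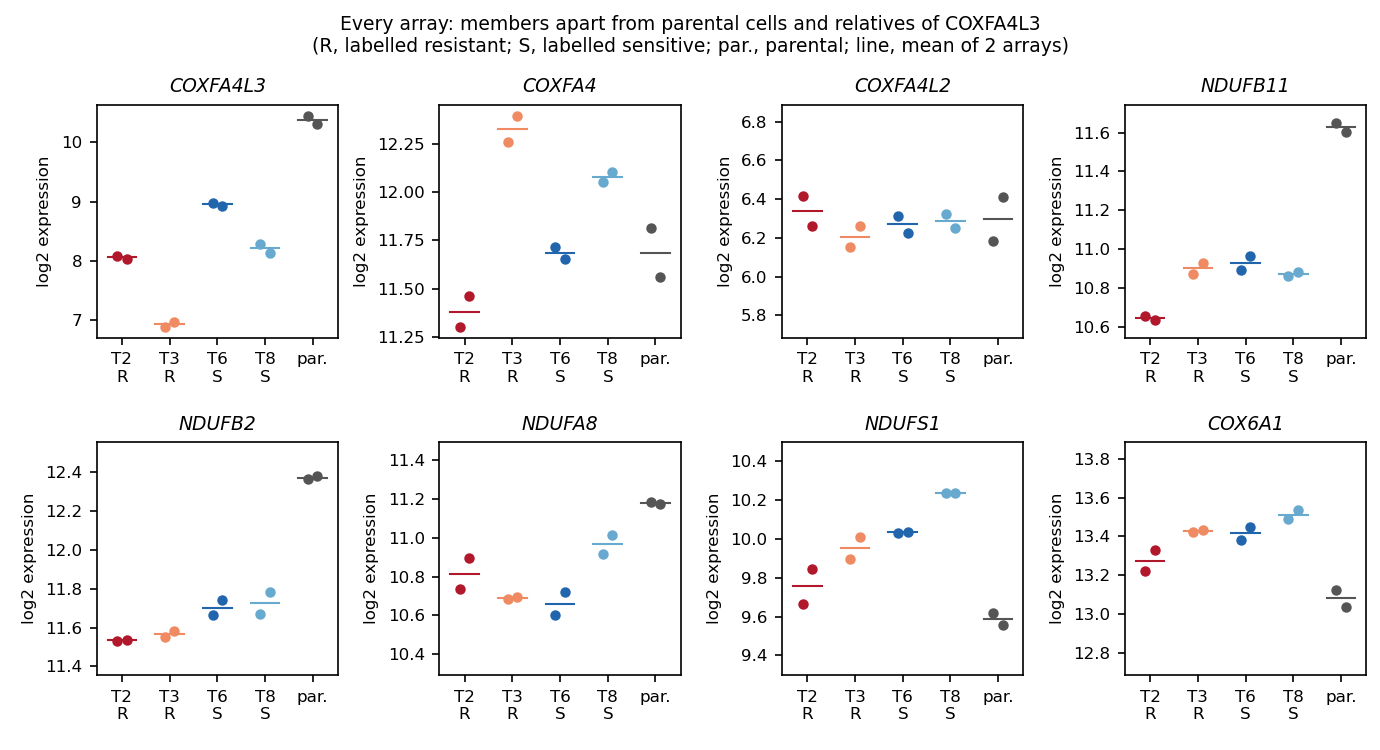
Log2 expression on each of the 10 arrays (points, 2 per line; bars, line means) for COXFA4L3, its relatives COXFA4 and COXFA4L2, and 5 further members; each panel has its own axis, none of which starts at 0. The parental points stand above all tumour points for COXFA4L3, NDUFB11, NDUFB2 and NDUFA8 and below all of them for NDUFS1 and COX6A1.

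The promoter of COXFA4L3, printed as the member with the largest fall, holds a TATA box run, in capitals. The mature miRNA that lies inside the gene is printed below it with its seed, bases 2 to 8, in capitals; the arrays did not measure it.
COXFA4L3, chr15:45430360-45430659, plus strand: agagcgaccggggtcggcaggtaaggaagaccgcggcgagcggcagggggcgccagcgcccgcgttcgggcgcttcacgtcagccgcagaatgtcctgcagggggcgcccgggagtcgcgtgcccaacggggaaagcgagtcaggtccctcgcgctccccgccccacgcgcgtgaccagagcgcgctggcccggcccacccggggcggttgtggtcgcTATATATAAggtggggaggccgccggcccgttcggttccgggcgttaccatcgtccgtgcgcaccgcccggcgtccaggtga
hsa-miR-147b-3p, chr15:45433098-45433118, plus strand: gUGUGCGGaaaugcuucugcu

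Several complex IV subunits exist as a widely used form and a form known from one tissue. COX6A1, the form outside muscle, measured 13.22 and 13.33 in T2, 13.42 and 13.43 in T3, 13.38 and 13.45 in T6 and 13.49 and 13.53 in T8, against 13.12 and 13.04 in parental cells. All tumour arrays lay above both parental arrays (0.33 ± 0.04, adjusted p = 2.67e-05), but the mean over the gene's probe sets gave 0.07 with no call. COX7A2L, which is known to join complexes III and IV into supercomplexes, rose by 0.31 ± 0.05 (adjusted p = 0.000153), and COX7C rose by 0.30 ± 0.04 (adjusted p = 4.66e-05); both were higher on all 8 tumour arrays. COX8A fell by 0.14 ± 0.04 (adjusted p = 0.0201), a call lost without either parental array. The general forms COX4I1 (0.03), COX6B1 (0.03) and COX7A2 (-0.05) were not called. Another bright probe set of COX4I1 gave 0.23 ± 0.06 and was called (limma adjusted p = 0.00505), while its dimmer ones gave -0.02 and -0.10 with no call.

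On every array the probe sets of the tissue forms read below those of the members at the bright end, which does not rank their transcripts. COX4I2, a form known from lung and low oxygen, ranged over all arrays from 6.91 to 7.18, COX6A2 and COX7A1, known from muscle, from 5.35 to 5.90 and from 4.68 to 5.21, and COX6B2, known from testis, from 5.14 to 5.85. None of these was called against parental cells. Of 7 muscle markers tested 2 fell in the tumours, TNNT1 (-0.42) and MB (-0.71), and 0 rose; the list's mean was 6.03 to 6.28 on the tumour arrays and 6.31 to 6.39 on the parental arrays. Myosin MYH1 lay at 3.17 to 3.39 and TNNT1 at 9.36 to 9.67 in the tumours. Of 3 testis markers tested 2 fell, PRM1 and TNP1 (-0.30 each), and 0 rose; that list's mean was 5.39 to 5.73 on the tumour arrays and 5.80 to 5.84 on the parental arrays, with DDX4 at 3.59 to 3.77 in the tumours. COX7B2, a testis form, was an exception: it measured 4.71 and 4.57 in T2, 5.04 and 5.16 in T3, 5.18 and 5.07 in T6 and 6.04 and 5.72 in T8, against 5.15 and 5.04 in parental cells. Only T8 had both arrays above the parental ones and only T2 had both below (0.79 ± 0.14 in T8, adjusted p = 0.000491; -0.45 ± 0.14 in T2, adjusted p = 0.0244), at levels near background.

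Complex V, the ATP synthase, held 6 rises and 1 fall among its 18 members. ATP5F1E, the epsilon subunit of the catalytic head, rose by 0.34 ± 0.07 (adjusted p = 0.000735), though T2 (12.72 and 12.84) overlapped the parental arrays (12.84 and 12.58) and the difference was 0.21 without parental replicate 2. ATP5MC2, a gene for the membrane ring, rose by 0.33 ± 0.06 (adjusted p = 0.000314) on its bright probe set only, since its second probe set gave -0.02 ± 0.11. Without parental replicate 2 it was at 0.22. ATP5F1B, the catalytic beta subunit, measured 13.28 and 13.34 in T2, 13.04 on both T3 arrays, 13.12 and 13.19 in T6 and 13.16 and 13.20 in T8, against 12.96 and 12.99 in parental cells. All its tumour arrays lay above the parental arrays, T2 by most and T3 by least (0.20 ± 0.04, adjusted p = 0.00101). ATP5F1A, the alpha subunit, fell by 0.13 ± 0.04 (adjusted p = 0.0184), with T3 level with the parental arrays. ATP5IF1, the inhibitor of ATP hydrolysis by the synthase, did not pass the test (0.00 ± 0.06).

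Each tumour was also set against the parental line alone, which gave contrasts that share the parental arrays. T2 had 10 members higher (17.5% of all genes) and 21 lower (15.5%), with a median of -0.06. T3 had 31 higher (22.1%) and 7 lower (15.8%), T6 had 15 higher (20.7%) and 11 lower (13.7%), and T8 had 36 higher (28.7%) and 6 lower (15.1%). Their medians were 0.12 in T3, 0.03 in T6 and 0.14 in T8. Genes of the members' level range had medians of 0.04 in T2, 0.11 in T3, 0.08 in T6 and 0.17 in T8. Of those 3230 genes, 864 were higher and 646 lower in T2, and 1228 and 541 in T3. In T6 these counts were 1003 and 491, and in T8 they were 1560 and 387. Of the 70 bright members, 10 were higher and 19 lower in T2, and 31 and 6 in T3. In T6 the bright members had 15 higher and 10 lower, and in T8 35 and 5. Higher in each of the 4 tumours were 6 members, COX6A1, COX7A2L, COX7C, NDUFA7, NDUFB10 and ATP5F1D, the delta subunit of the synthase head. Of all genes 8.87% did so. Lower in each were 4 members, COXFA4L3, NDUFA8, NDUFB11 and NDUFB2, as were 5.41% of all genes. The SEs of these single differences ran from 0.05 to 0.18. Calls in both directions together numbered 25 in T3 without T3 replicate 2, 12 in T6 without T6 replicate 2 and 14 without parental replicate 2, and 24 in T8 without parental replicate 2.

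The tumours also differed from each other. The F test over the 4 tumours called 50 of the 77 members (41.7% of all genes), and 32 without T8 replicate 2. T2 was the lowest of the tumours for 51 members (66.2%, beside 31.7% of all genes), among them 27 of 33 in complex I, 8 of 17 in complex IV and 10 of 18 in complex V. At the members' bright level T2 was lowest for 49 of 70 members, beside 44.0% of the 3230 genes of that level, a share nearer to that of the members than the share of all genes. T2 was the lowest tumour for 45 members after a second quantile normalisation (26.1% of all genes), and for 38 without T2 replicate 1 (49.4%, beside 29.0% of all genes). T8 was highest for 34 members (44.2%, beside 30.4% of all genes) and T3 for 30 (39.0%, beside 24.3%). At the bright level these were 32 of 70 for T8, beside 42.4% of genes of that level, and 28 of 70 for T3, beside 25.7%.

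The widest ranges over the tumour means, after COXFA4L3 (2.03) and COX7B2 (1.24), were those of COX7B, NDUFA1, NDUFB7, NDUFAB1, COX5B and ATP5PF. NDUFA1, a small membrane subunit needed for complex I assembly, measured 11.35 and 11.45 in T2, 12.18 and 12.31 in T3, 11.99 and 12 in T6 and 12.29 and 12.31 in T8, against 12.15 and 12.01 in parental cells. T2 stood alone below all other arrays, by 0.68 ± 0.06 against parental cells (adjusted p = 1.06e-06). COX7B, a small subunit of complex IV, measured 11.43 and 11.65 in T2, 12.60 and 12.59 in T3, 12.22 and 12.25 in T6 and 12.43 and 12.60 in T8, against 12.28 and 12.14 in parental cells. Again T2 was apart on the low side, with T3 and T8 above the parental arrays.

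NDUFAB1, the mitochondrial acyl carrier protein that is also a complex I subunit, measured 11.99 and 12.02 in T2, 12.65 and 12.74 in T3, 12.21 and 12.33 in T6 and 12.59 and 12.66 in T8, against 12.46 on both parental arrays. T2 and T6 were below the parental line and T3 and T8 above it, with no overlap on either side. COX5B, a subunit facing the matrix, measured 11.45 and 11.51 in T2, 12.10 and 12.16 in T3, 11.71 and 11.76 in T6 and 11.97 and 12.01 in T8, against 11.88 and 11.85 in parental cells. It showed the same order of lines. NDUFB7 ran from 9.78 and 10.01 in T2 to 10.71 and 10.84 in T3, and ATP5PF from 11.67 and 11.94 in T2 to 12.36 and 12.44 in T8. For NDUFAB1, COX5B and NDUFB7, T2 and T3, which share the resistant label, lay at opposite ends.

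**Figure D3:**
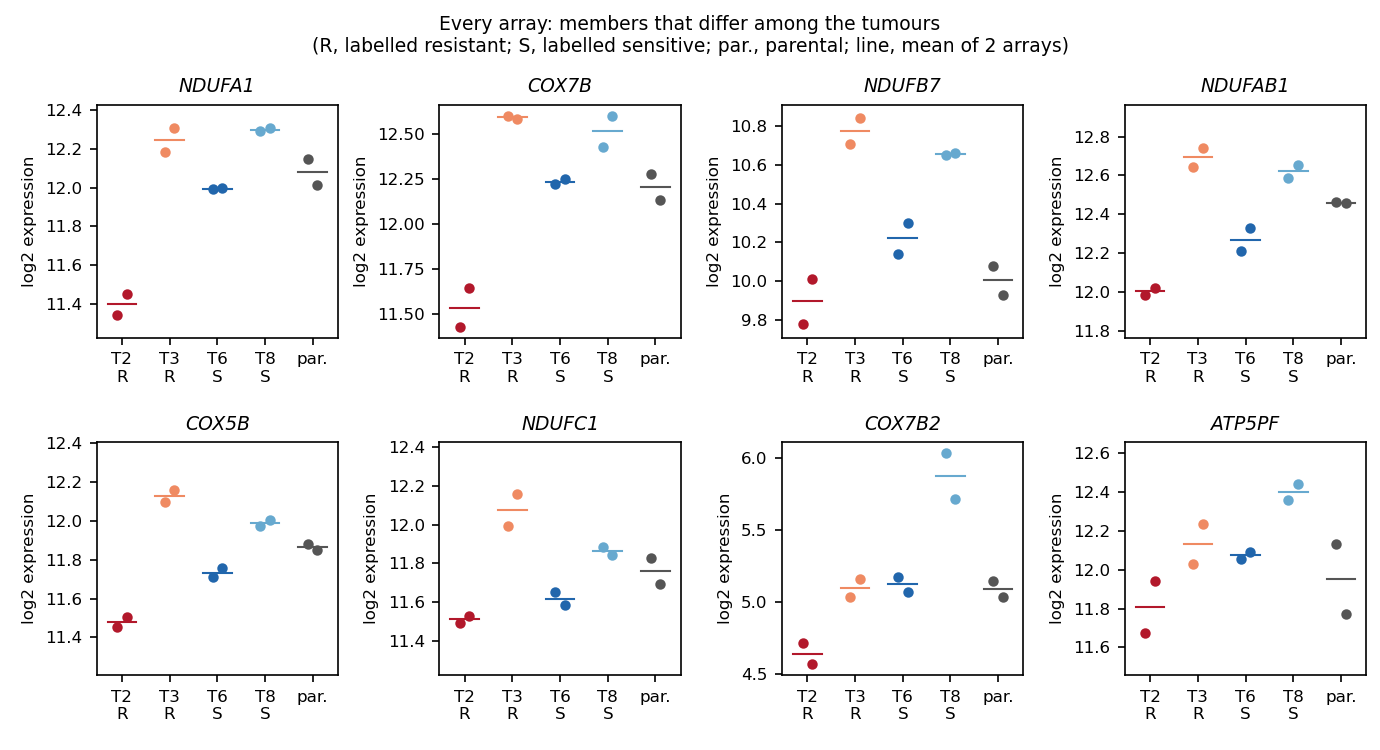
Log2 expression on each of the 10 arrays (points, 2 per line; bars, line means) for 8 members that the F test called among the tumours; each panel has its own axis, none of which starts at 0. T2 is lowest in all 8 panels, and T3 or T8 is highest. The panels were picked after the values were seen and leave out COXFA4L3, which had T3 lowest and T6 highest.

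NDUFA1, COX7B and NDUFB11 are the 3 members on the X chromosome. T2 differed from the mean of the other tumours by a median of -0.78 over these 3 and of -0.15 over the other 74 tested members. Over all 476 X-linked genes tested that median was -0.07, and over all genes it was -0.0019. The first of these medians rests on 3 genes, of which NDUFA1 and COX7B were named above for their wide range with T2 lowest.

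Resistant and sensitive tumours were compared to ask whether members go with the loss of response to SM-164. Over the arrays of these particular tumours, 1 member was higher in T2 and T3 (4.76% of all genes) and 14 were lower (14.2%), with a median of -0.05, beside -0.06 for genes of the members' level. After a second quantile normalisation these counts were 4 and 17. No member had all resistant arrays above all sensitive arrays (3.97% of all genes did), and 5 had all of them below (6.44%). These were COXFA4L3 (-1.09 ± 0.06, adjusted p = 9.42e-08), NDUFV3 (-0.37 ± 0.05, adjusted p = 0.000356), NDUFS1 (-0.28 ± 0.05, adjusted p = 0.00239), NDUFA10 (-0.27 ± 0.04, adjusted p = 0.000744) and NDUFB2 (-0.17 ± 0.04, adjusted p = 0.0133).

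NDUFV3, a subunit of the NADH-binding module, measured 9.88 and 9.86 in T2 and 9.48 and 9.57 in T3, against 10 and 10.10 in T6 and 10.04 and 10.13 in T8. T3 carried most of that difference. The gene's second probe set gave -0.40 (limma adjusted p = 0.00394), but there T2 (6.55) was lowest. On it resistant T3 (7.28) lay above sensitive T6 (7.11) and below T8 (7.52), so it did not separate the labels. NDUFA10, an accessory subunit of the membrane arm, measured 10.81 and 10.86 in T2 and 10.86 and 10.92 in T3, against 11 and 11.09 in T6 and 11.21 and 11.22 in T8. Here T8 stood out on the high side. Where the mean over all probe sets stood for a gene, NDUFA10 (-0.03), NDUFS1 (-0.04) and NDUFB2 (-0.05) were no longer called. The 1 higher member, NDUFA11, reached 0.13 ± 0.04 at an adjusted p of 0.0499, and its T2 arrays (12.07 and 12.20) lay below all sensitive arrays.

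The response label is carried by tumours and not by arrays. When each tumour counted as one replicate, the limma fit called 0 of the 77 members and 0% of all genes, the smallest adjusted p among the members being 0.894. At an unadjusted p under 0.05 it gave 1 member, COX6B2, and 661 genes, and a fit over arrays with the line as a random block also called 0 members. With 2 tumours per label, a difference of the members between resistant and sensitive tumours was not detectable. Without T2 replicate 1 or T3 replicate 1 the lower calls over arrays numbered 8, and without T6 replicate 2 or T8 replicate 2 they numbered 7.

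**Figure D4:**
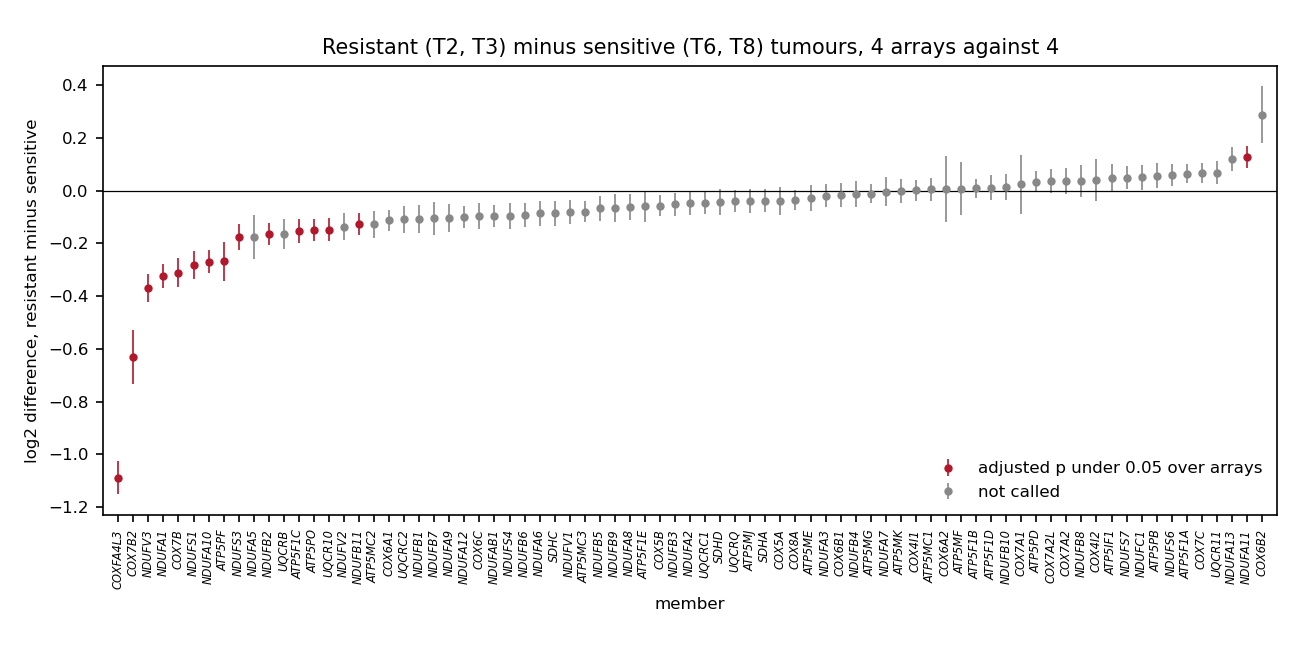
Log2 difference between resistant (T2, T3) and sensitive (T6, T8) tumours for the 77 tested members, sorted; bars are SEs of the fit over arrays and colour marks an adjusted p under 0.05. COXFA4L3 lies at -1.09 and COX7B2 at -0.63, and the other 13 called members lie between -0.37 and 0.13.

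Genes that build or serve the respiratory chain were counted beside the members. Over the tumours 25.5% of all genes rose and 16.8% fell, the background for each list here and in the next paragraph. Among the 3230 genes of the members' level, 1342 rose and 547 fell. Of the 75 mitochondrial ribosomal proteins, which translate the mitochondrial core subunits, 45 rose and 5 fell over the tumours, with a median of 0.17. After a second quantile normalisation 30 rose and 12 fell, and without parental replicate 2 the rises numbered 27. MRPL19 rose most (0.77 ± 0.08) and MRPS33 fell most (-0.66 ± 0.05). Of 46 assembly factors 25 rose and 2 fell (median 0.16), led by NDUFAF7 (0.65 ± 0.06), a methyltransferase that acts on complex I, while SURF1, a complex IV assembly factor, fell (-0.38 ± 0.05). Of 11 genes for cytochrome c, cytochrome c1 and inner membrane carriers 6 rose and 0 fell. The citric acid cycle had 4 rises and 2 falls among 12 genes, with SUCLG1, a succinyl-CoA ligase subunit, highest (0.65 ± 0.05).

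Among 15 regulators of mitochondrial genes 8 rose and 1 fell. TFAM, which packs mitochondrial DNA and helps to start its transcription, rose by 0.42 ± 0.06 and TFB1M by 0.50 ± 0.07. Smaller rises were called for GABPB1 (0.17 ± 0.05) and YY1 (0.18 ± 0.07), while NRF1 (-0.10 ± 0.09), GABPA (-0.01 ± 0.10) and PPARGC1A (-0.07 ± 0.13) were not called. Of 4 mitochondrially encoded genes with probe sets, ND6 rose (0.31 ± 0.09), and ATP6 (0.05), ND2 (0.04) and ND4 (-0.001) were not called. The 59 cytosolic ribosomal proteins had 14 rises and 0 falls with a median of 0.05. Of 25 genes of glycolysis and the hypoxia response 12 rose and 4 fell. In the response comparison over arrays, 14.2% of all genes were lower and 4.76% higher. Of the 3230 genes of the members' level, 651 were lower and 157 higher. There 25 mitochondrial ribosomal proteins and 12 assembly factors were lower and 0 of either higher, and none was called with the tumour as the replicate. Those 25 became 8 without T6 replicate 2, 9 without T8 replicate 2 or T3 replicate 1, 11 without T8 replicate 1, 14 without T2 replicate 1 and 38 without T2 replicate 2. With a second quantile normalisation 7 ribosomal proteins were higher and 20 lower, and the lower count was 12 with centred medians, 11 without a trend and 10 of 42 without less specific probe sets.

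**Figure D5:**
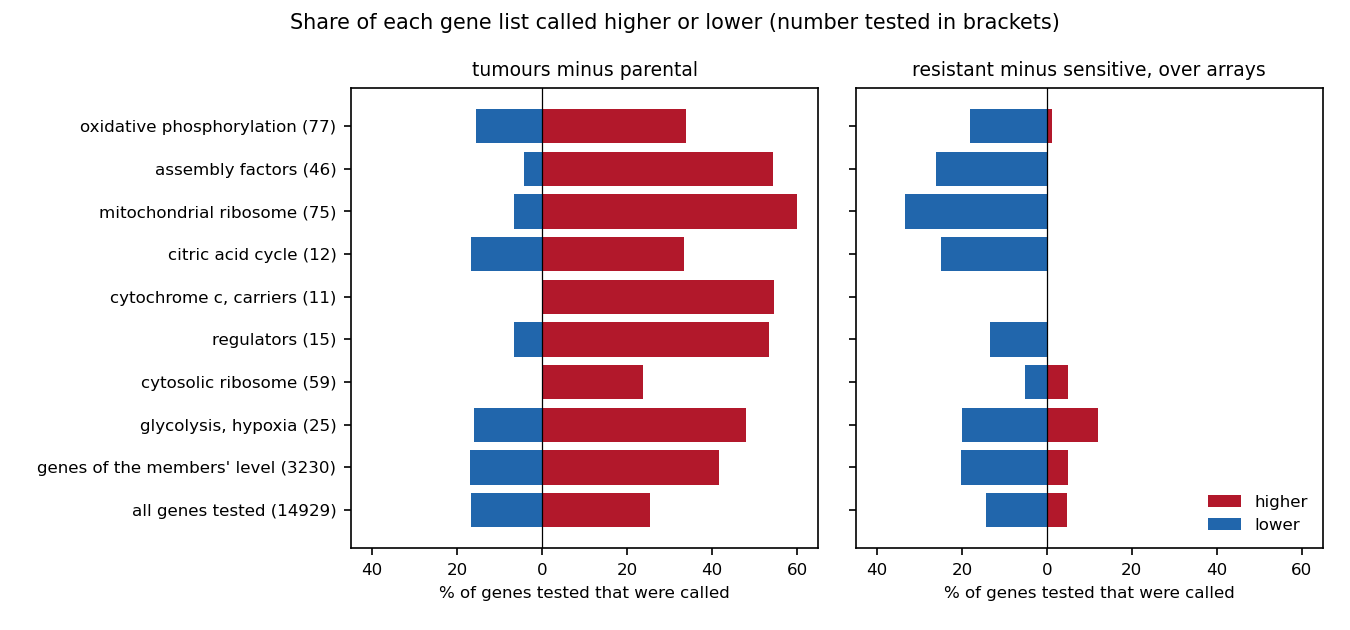
Share of each gene list called higher (red, to the right) or lower (blue, to the left), for tumours against parental cells and for resistant against sensitive tumours over arrays; the number tested is in brackets. The mitochondrial ribosome (45 of 75 higher) and the assembly factors (25 of 46) reach farther to the right than oxidative phosphorylation (26 of 77).

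COXFA4L3 is known as a target of NF-kB in inflammation. Of 13 NF-kB targets tested, 7 rose in the tumours and 2 fell, beside 25.5% and 16.8% of all genes. BCL2A1 rose most (2.75 ± 0.11) and RELB fell most (-0.30 ± 0.10). COXFA4L3 fell in each tumour, and a part of NF-kB in that fall was not tested.

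Markers of cells that a tumour isolate could hold were also read. Of 6 endothelial markers 4 rose in the tumours: ENG (1.0), TIE1 (0.49), CDH5 (0.49) and KDR (0.41), whereas PECAM1 (-0.18) and VWF (-0.16) were not called. The mean level of that list was 5.40 to 5.91 on the tumour arrays and 5.22 to 5.26 on the parental arrays, and T8 had the highest CDH5 (5.17) and TIE1 (5.51). Of 5 macrophage markers tested 3 fell, CSF1R (-0.68), LAPTM5 (-0.61) and ITGAM (-0.40), and 0 rose. The list's mean was 6.21 to 6.60 on the tumour arrays and 6.74 to 6.86 on the parental arrays. LAPTM5 was the brightest of the 5, at 10.66 in the parental line in culture. It is therefore not specific to macrophages here, and it raises the list's mean in every line. PTPRC, which was not tested, lay at 3.90 to 4.09 in the tumours and 4.05 in parental cells. Fibroblast and pericyte markers had 2 falls and 0 rises among 5. The part of these markers in the differences of the members was not tested.

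Other probe sets of the members were read as a check on the chosen ones. The members have 74 further probe sets with a single name, of which 58 reached the filter. For the members called in the tumours against parental cells, 27 such probe sets of 18 genes could be compared. Of these, 20 had the sign of the chosen probe set and 7 the opposite sign, and none of the 7 was called. The response comparison was not part of that count. There, ATP5MJ (-0.31, beside -0.04) and ATP5IF1 (-0.36, beside 0.05) were among the members with another probe set called and the chosen one not. For NDUFV3 and ATP5F1C the chosen and the other probe sets were called alike. ATP5MF, a subunit of the synthase's membrane part, had only a dim single-name probe set (-0.11 ± 0.11), while a bright one that also carries the name of a non-coding RNA gave -0.27 ± 0.05 (adjusted p = 0.000748).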

How the data were processed

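Total RNA of 5 lines was hybridised to Affymetrix arrays, 2 per line. The deposited values are log2 expression values made by the authors; RMA, affy and limma are named per the submitters' processing notes, and their versions and settings are not given in the sources used here. RMA corrects background, quantile-normalises probes and summarises each probe set, so a shift shared by all genes cannot be seen. An array has no read depth: the number of arrays and the distance from background limit the precision, and differences near background are compressed.

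Of 54675 probe sets, 62 controls were left out, 41091 had 1 gene symbol, 1801 several and 11721 none, by the platform annotation; 41037 symbols were updated by Entrez number against the RefSeq table of GRCh38.p14. Among single-name probe sets of a gene, the brightest on average was used. Genes were tested where it reached log2 5 on at least 2 arrays.

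Fits used limma 3.58.1 under R 4.3.3 (lmFit, eBayes with a trend, 1 coefficient per line, 5 residual and 9.39 prior degrees of freedom), with Benjamini-Hochberg adjusted p-values over all 14929 genes. Resistant against sensitive was also fitted on line means (2 residual and 2.73 prior degrees of freedom). The fit was tested on simulated data. Replicate numbers were not used as pairs in the main fit. Deviations of same-numbered arrays correlated at -0.387 to 0.502 over 10 pairs of lines, with 4 above 0.1. The sign differed between pairs of lines, so no one pairing held for all of them. An influence shared by arrays of some lines is not excluded.

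Members, lists, tests and alternatives were chosen with earlier results of these data known. Genes named are the 12 largest differences per direction of called members with one sign in every tumour, the 8 largest for the response with separated arrays, the 8 widest ranges among tumours, the isoform genes and COXFA4L3 with its relatives, and the largest called difference of each other list; others named were picked after their values were seen. Figures were drawn with matplotlib 3.10.9.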

Additional observations from a re-analysis of the deposited data

Results flagged for a closer look

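Some members moved one way in one tumour and the other way in another, each by more than the test's threshold against the parental arrays, and the F test over the tumours called them as well. NDUFA1 was at -0.682 in T2 and 0.218 in T8. NDUFAB1 was at -0.457 in T2 and 0.233 in T3, NDUFC1 at -0.249 in T2 and 0.314 in T3, COX5B at -0.388 in T2 and 0.262 in T3, and COX7B at -0.67 in T2 and 0.385 in T3. COX7B2, which is near background, was at -0.451 in T2 and 0.787 in T8. All are log2 differences from parental cells, and T2 was the tumour on the low side in each of these 6 genes.

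Signals were also found in probe sets outside the comparisons above, which carry several gene names. The probe set named for UQCRHL and UQCRH, the hinge subunit of complex III and its near-identical copy, was higher in the tumours by 0.284. Of the probe sets named for NDUFC2-KCTD14 and NDUFC2, a complex I subunit and its read-through transcript, 2 were higher, by 0.154 and 0.275. All 3 were called by limma. The probe set named for RPL10 and NDUFS5 gave 0.03 with no call. Those named for NDUFS8, a core subunit of complex I, and microRNAs gave -0.09, -0.04 and 0.13, with no call either. Which of the named genes gives the signal was not tested.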

How the results depend on the processing

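Against a main count of 26 members higher and 12 lower in the tumours, leaving out less specific probe sets gave 17 and 5 among the 59 members left, a second quantile normalisation gave 26 lower, centring each array's median gave 7 lower and a fit without a trend gave 7 lower. For resistant against sensitive over arrays (1 higher, 14 lower), the higher count was 4 after a second quantile normalisation and 0 with centred medians, no filter, no less specific probe sets or no trend, and the lower count was 8 with centred medians and 7 without a trend. T3 against parental cells went to 22 calls, against 38, without less specific probe sets, and T6 to 16, against 26, without a trend; the differences among tumours went to 31 and 29, against 50, under those settings. The replicate block gave 26 higher and 11 lower for the tumours, 2 higher and 14 lower for the response and 48 among tumours. The causes were not tested, beyond the fewer members left without less specific probe sets.

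Leaving out 1 array at a time gave 17 to 28 members higher in the tumours (fewest without parental replicate 2) and 6 to 12 lower (fewest without parental replicate 1), 0 to 2 higher and 7 to 18 lower in resistant tumours, 24 to 32 calls in T2, 25 to 42 in T3 (fewest without T3 replicate 2), 12 to 31 in T6 (12 without T6 replicate 2, 14 without parental replicate 2), 24 to 45 in T8 (fewest without parental replicate 2) and 32 to 58 among tumours (fewest without T8 replicate 2). With the tumour as replicate the count was 0 under every alternative run. Without less specific probe sets ATP5MC2 turned to -0.016 and NDUFV3 to 0.0779 in the tumours. Of 37 results on single named genes, 23 kept their direction and side of the threshold under all alternatives run, and the other 14 did not. Among the 23 were COXFA4L3, NDUFB11, NDUFB2, NDUFA8 and NDUFS1 against parental cells. The 23 also include genes that stayed not called against parental cells: ATP5IF1, COX4I1, COX4I2, COX6A2, COX6B1, COX6B2, COX7A1, COX7B2 and COXFA4L2.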
